A study of Homo sapiens with 2 samples.

Results

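Gene deserts are long stretches of a chromosome that hold no protein-coding gene. Here a desert was any stretch of 1 Mb or more between neighbouring protein-coding genes of GENCODE 44, on either strand, with under 5% undetermined bases (N) in hg38, on chromosomes 1 to 22. Chromosome 15 from 23 to 48.65 Mb was left out. Of 14931 stretches between protein-coding genes, 290 were 1 Mb or longer, 17 of these were left out for undetermined bases and 3 for lying in the block on chromosome 15, which left 270 deserts. They lay on all 22 autosomes, none at a chromosome end, and spanned 517 Mb of determined sequence, 18.8% of that of the autosomes. Their length was 1.00 to 6.53 Mb, with a median of 1.61 Mb.

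The nucleosome map came from ARPE-19 cells, an immortal human line grown from retinal pigment epithelium, under normal culture and in interphase. Its chromatin was digested with micrococcal nuclease (MNase-seq), and DNA of about 150 bp was recovered from a gel and sequenced. The labels give 2 batches of these cells as 1 group, with no treatment, mutation or control arm, and the authors deposited 1 list of positions that names neither batch. Every value below therefore describes 1 map without replicates, whose read depth is unknown, and errors are given as the SD over chromosomes, which are not biological replicates.

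In this assay the nuclease degrades linker DNA and spares what the histone octamer protects. It cuts A/T-rich DNA more readily, and G/C-rich DNA bends more easily around the octamer, so the base composition of a region bears on both the chromatin and the assay. Gene deserts are as a rule rich in A and T, replicate late in S phase and often lie at the nuclear lamina. Some hold enhancers that act over long distances on developmental genes at their edges, while others can be lost with little effect. Stretches without genes around centromeres hold alpha-satellite DNA, arrays of a repeated monomer that carry the centromeric nucleosomes and to which short reads are hard to assign.

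The autosomes held 2558490 distinct positions, 0.928 per kb over 2756 Mb. Sequence called alpha-satellite-like (500-bp windows with at least 50% identity to the sequence about 1 alpha-satellite monomer further on) made up 1% or more of 11 deserts. These 11 stood apart in nearly every measure, so results are given for all 270 deserts and for the other 259, called satellite-free. Bases that start a 36-mer found once in the genome made up 85.8% of all deserts, 91.4% of satellite-free deserts and 89.3% of gene bodies. Gene bodies are 14758 merged protein-coding genes, and short stretches are the 14493 stretches under 1 Mb between them.

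A regular run of positions in each of 2 of the longest satellite-free deserts shows what the list holds and in which sequence. In the desert between PCDH7, which encodes a protocadherin of cell adhesion, and ARAP2, which encodes a GTPase-activating protein (chr4:31146806-35948220), the first such run had 4 positions, 182, 194 and 203 bp apart. In the desert between CELF4, which encodes an RNA-binding protein, and PIK3C3, which encodes the class III phosphoinositide 3-kinase (chr18:37565828-41955233), 5 positions lay 174, 190, 179 and 190 bp apart. The hg38 plus strand around the first position of each run, over the length of DNA in a nucleosome core particle, is given below. Each is followed by a sequence of the same length midway in a later gap of over 300 bp (676 and 749 bp), with runs of 5 or more A or T in capitals. As the coordinates show, that gap need not be beside the run.
PCDH7-ARAP2, at a position (chr4:31432709-31432855): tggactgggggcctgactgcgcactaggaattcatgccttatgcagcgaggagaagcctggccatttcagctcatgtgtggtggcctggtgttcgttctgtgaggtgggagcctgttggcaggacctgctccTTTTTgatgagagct
PCDH7-ARAP2, midway (chr4:31447173-31447319): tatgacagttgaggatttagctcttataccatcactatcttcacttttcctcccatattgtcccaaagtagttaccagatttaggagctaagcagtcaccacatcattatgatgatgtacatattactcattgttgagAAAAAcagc
CELF4-PIK3C3, at a position (chr18:37608997-37609143): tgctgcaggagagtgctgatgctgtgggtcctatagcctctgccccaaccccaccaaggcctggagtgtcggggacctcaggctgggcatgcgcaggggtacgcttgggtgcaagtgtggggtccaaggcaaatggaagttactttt
CELF4-PIK3C3, midway (chr18:37610104-37610250): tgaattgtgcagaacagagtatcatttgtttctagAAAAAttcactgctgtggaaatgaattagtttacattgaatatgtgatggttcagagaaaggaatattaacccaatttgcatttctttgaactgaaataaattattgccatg

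The sequences at the positions had a GC content of 56.5 and 59.9%, and those midway had 36.7 and 30.6%. In both deserts the wrapped sequence was the richer in G and C, by more than in pairs found by the same rule in the deserts next in length. There the sequence at the position and the one midway had 53.1 and 50.3% GC between IGFBP7 and ADGRL3, 42.2 and 32.7% between OLFM4 and PRR20A, and 42.9 and 31.97% between CDH9 and CDH6. In the last of these the sequence at the position held 3 runs of 5 or more A or T and the one midway held 2. Single pairs therefore vary, and the contrast was measured over all positions. In satellite-free deserts GC content in the 150 bp centred on a position was 45.9% ± 1.38 (SD, n = 21 chromosomes), and the 150 bp midway between neighbours 300 to 1000 bp apart had 39.5% ± 1.73, a difference of 6.43 points ± 0.455. Gene bodies gave 49.9% and 43.6%, a difference of 6.23 points ± 0.688 (n = 22). The difference itself was thus of similar size in both, larger in deserts by 0.13 points ± 0.45 and on 12 of 21 chromosomes, while the positions of deserts lay in sequence poorer in GC by 3.72 points ± 1.37, on 21 of 21 chromosomes.

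Runs of 5 or more A or of 5 or more T (AAAAA or TTTTT), which are stiff and known to disfavour nucleosomes, followed the same order. In satellite-free deserts 40.1% ± 4.18 (SD, n = 21) of the windows of core particle length at positions held such a run, against 55.3% ± 4.17 of those midway and 60.5% ± 4.77 of all windows of that length. The share was lower at positions than midway by 15.2 points ± 1.68 (SD), on 21 of 21 chromosomes. In gene bodies the shares were 35.1, 51.6 and 55.5%. Long runs, of 10 or more A or T, were fewer in deserts, at 0.261 per kb against 0.390 in gene bodies and 0.354 in short stretches, although deserts are the richer in A and T.

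Positions were sparser in deserts than in genes. The 270 deserts held 371597 positions, 14.5% of the autosomal ones, or 0.718 per kb of determined sequence. Gene bodies held 0.939 per kb, and short stretches, which lie between genes as deserts do but have the GC content of gene bodies (41.9%), held 1.09 per kb. On single autosomes the density of deserts ran from 0.396 per kb on chromosome 17 to 1.73 on chromosome 15, and that of gene bodies from 0.745 on chromosome 6 to 1.74 on chromosome 15. Deserts were lower than gene bodies by 0.40 ± 0.28 on the log2 scale (SD, n = 22 chromosomes), on 21 of 22, with chromosome 22 the exception at +0.02. Against short stretches the mean log2 ratio was -0.61 ± 0.30, again below 0 on 21 of 22 chromosomes.

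Deserts were also poorer in GC, at 37.2% against 41.9% in gene bodies. When each base was given the density of all bases with the same GC content in the surrounding 200 bp, the order of deserts and gene bodies turned. Deserts then held 1.04 times the expected number of positions and gene bodies 0.941 times. Short stretches held 1.06 times, so a level above that of gene bodies was shared by both kinds of sequence between genes. The log2 ratio of these values was +0.090 ± 0.213 (SD, n = 22), smaller than its spread, and below 0 on 5 chromosomes (3, 5, 7, 17 and 18). Each of these 5 carries a desert with alpha-satellite-like sequence, as do 6 chromosomes on which deserts were the higher (4, 8, 9, 12, 19 and 21). In satellite-free deserts the raw log2 ratio was -0.31 ± 0.19 (SD, n = 21, lower on 20) and the GC-corrected one +0.18 ± 0.090, lower on 0 of 21. Deserts of 2 Mb or more, satellite included, gave -0.092 after the GC correction and 0.14 when satellite-free.

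**Figure D1:**
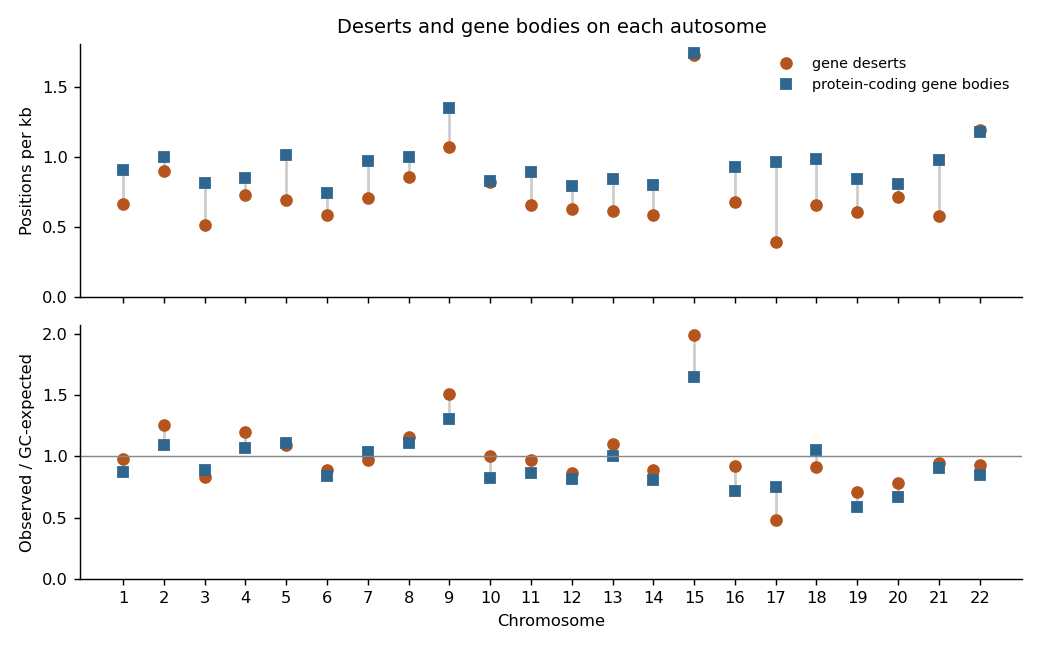
Positions per kb (top) and observed over GC-expected positions (bottom) on each autosome, for all gene deserts (circles) and protein-coding gene bodies (squares), with a grey line joining the pair. Deserts lie below gene bodies on 21 of 22 autosomes at the top and on 5 at the bottom, and chromosome 15 is highest in both classes.

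Deserts and genes were then compared among bases of equal GC content. At 36 to 38% GC satellite-free deserts held 0.558 positions per kb and gene bodies 0.497. At 40 to 42% GC the densities were 1.12 and 0.949 per kb, and at 46 to 48% they were 2.11 and 1.75. Between 36 and 48% GC, deserts were lower in none of the 21 chromosomes in any bin. The order was the opposite above 58% GC, where few desert bases lie: at 58 to 60%, deserts held 1.66 per kb and gene bodies 1.88, and deserts were lower on 16 of 20 chromosomes. Below 30% GC densities were close to 0 in both, at 0.0718 and 0.0744 per kb for 28 to 30%. At a given GC content in mid-range a base was therefore more often a called position in a satellite-free desert than in a gene. With the satellite kept this did not hold in every bin. All deserts held 0.662 per kb against 0.698 in gene bodies at 38 to 40% GC, and 0.928 against 0.949 at 40 to 42%. The lower density of deserts as a whole went with their excess of A/T-rich bases.

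The steepness of this dependence differed little when GC was taken over 200 bp. The density at 46 to 50% GC over that at 34 to 38% was 2.17 ± 0.36 on the log2 scale in deserts and 2.14 ± 0.16 in gene bodies (SD, n = 22), a difference of 0.026 ± 0.336, smaller than its spread, although deserts were the steeper on 18 of 22 chromosomes. In satellite-free deserts the difference was 0.074 ± 0.099, higher on 17 of 21. With GC taken over 1000 bp the difference was 0.084 ± 0.369 in all deserts, and in satellite-free ones 0.19 ± 0.11, higher on 21 of 21 and beyond its spread. Whole 10-kb windows pooled over chromosomes gave the same order as single bases, but less evenly over single chromosomes. At 34 to 36% GC windows of satellite-free deserts held 0.580 per kb and windows of gene bodies 0.563, with deserts lower on 5 of 20 chromosomes. At 36 to 38% deserts were lower on 6 of 20. At 42 to 44% the windows held 1.27 and 1.05, with deserts lower on 1 of 19. At 46 to 48% they held 1.62 and 1.29, with deserts lower on 0 of 10.

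**Figure D2:**
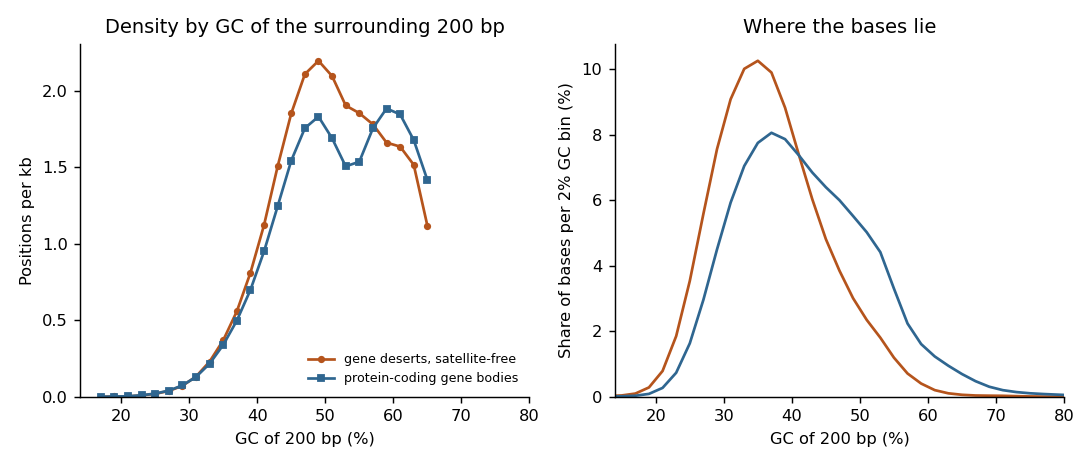
Left, positions per kb against the GC content of the surrounding 200 bp in satellite-free deserts (circles) and protein-coding gene bodies (squares), for bins with at least 0.2 Mb of desert. Right, the share of bases in each 2% GC bin. Desert bases are shifted to low GC, and between 36 and 56% GC the desert density is the higher.

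Single deserts differed widely. Among the 270, density ran from 0.0673 to 2.07 per kb with a median of 0.713, and among the 259 satellite-free deserts from 0.349 to 2.07 with a median of 0.721. Their GC content was 34.3 to 47.7%, and across these 259 deserts, which share 1 map and lie on 21 chromosomes, density followed it with Pearson's r of 0.79 and Spearman's rho of 0.77. Observed over GC-expected positions did not follow it (r = 0.063). The 35 satellite-free deserts with 40 to 48% GC held a median of 1.20 positions per kb, and the 89 with 34 to 36% held 0.585. Longer deserts were poorer in GC and sparser: the 118 of 1 to 1.5 Mb had a median GC content of 37.6% and a median density of 0.801 per kb, and the 25 of 3 to 5 Mb had 35.3% and 0.599. After the GC expectation the medians of these length groups were 1.11 and 1.14.

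**Figure D3:**
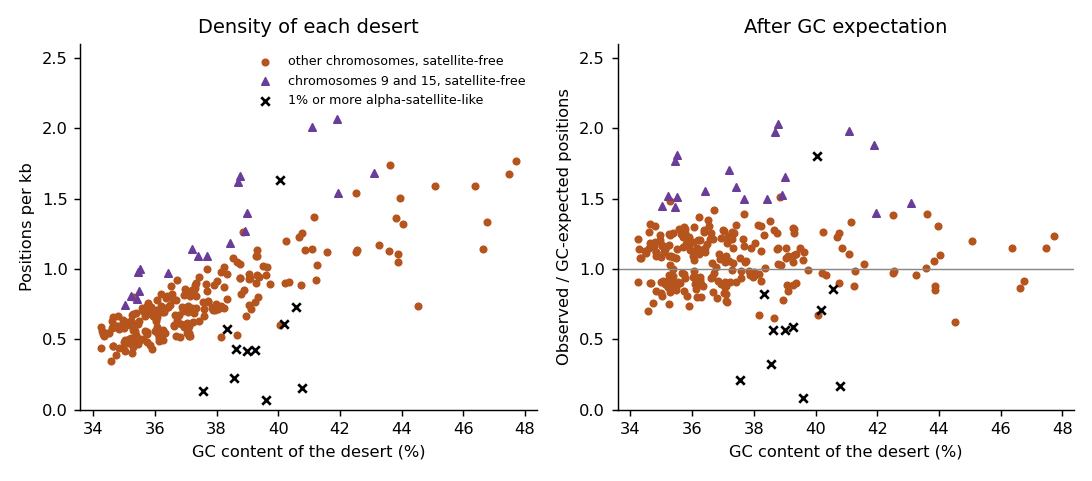
Positions per kb (left) and observed over GC-expected positions (right) of each of the 270 deserts against its GC content. Satellite-free deserts on chromosomes 9 and 15 (triangles) lie above most others, deserts with alpha-satellite-like sequence (crosses) mostly lie below, and the rise with GC on the left is gone on the right.

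The chromosome a desert lay on accounted for much of what GC did not. Of the variance of log2 density over 257 satellite-free deserts with genes close by, 38.3% lay between chromosomes, and of the variance of observed over expected positions 77.1% did. After division of the density by that of the genes within 1 Mb of each desert, 9.67% did, and 11.7% with the GC expectation on both sides. Deserts on chromosomes 9 and 15 were the highest for their GC, and chromosome 9 as a whole held 1.51 times the expected positions in deserts and 1.31 times in gene bodies. Deserts thus shared the level of the genes on the same chromosome, and over the 257 deserts their density followed that of the genes nearby with r = 0.75 and rho = 0.79, a description of points that share chromosomes.

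The 3 densest satellite-free deserts lay on chromosomes 9, 15 and 1. The desert between BRINP1, a gene of the nervous system, and CDK5RAP2, which encodes a centrosomal protein (chr9:119369436-120388874), held 2107 positions, 2.07 per kb, against 1.51 in the genes within 1 Mb. That between RGMA, which encodes a repulsive guidance molecule, and MCTP2 (chr15:93089212-94231537) held 2.01 per kb, against 2.11 in its neighbouring genes. The desert between PTPRU, a receptor tyrosine phosphatase gene, and ENSG00000289710 (chr1:29326814-30576654) held 1.77 per kb against 0.978. It had the highest GC content of all deserts, 47.7%, and 1.24 times the expected positions. The first and the third of these stood above the genes beside them, and the desert on chromosome 15 did not.

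The 3 sparsest satellite-free deserts were all near 35% GC. The desert between EPHA7, an ephrin receptor gene, and MANEA, which encodes an endomannosidase (chr6:93419688-95577484), held 735 positions, 0.349 per kb, and its genes nearby held 0.400. It contains a gap of 419 kb without a position, where the median largest gap of satellite-free deserts was 14.2 kb. Its density includes that gap, and how far its rank rests on it was not tested. The desert between LRFN5, which encodes a synaptic adhesion molecule, and FSCB, which encodes a protein of the sperm tail (chr14:41904550-44504148), held 0.388 per kb against 0.440. That between MGAT4C, a glycosyltransferase gene, and C12orf50 (chr12:86838905-87980034) held 0.405 per kb against 0.406. The log2 ratios to the genes nearby were -0.20, -0.18 and -0.0039, so these sparse deserts lay beside sparse genes.

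Among the 10 longest deserts, 7 held alpha-satellite-like sequence. The longest, 6.53 Mb between the zinc finger genes ZNF716 and ZNF722 (chr7:57473560-63998848), held 0.415 positions per kb, and 53.9% of its windows were alpha-satellite-like. Deserts between KCNJ18 and WSB1 (0.156 per kb), EPHA3 and PROS1 (0.132), ALG10 and ALG10B (0.425) and ZNF254 and UQCRFS1 (0.611) were also among them. The 3 satellite-free deserts among the 10 were PCDH7-ARAP2, AGA-TENM3 and CELF4-PIK3C3. PCDH7-ARAP2 held 0.599 per kb against 0.623 in the genes nearby, the desert between AGA, a gene of a lysosomal enzyme, and TENM3, which encodes the adhesion molecule teneurin 3 (chr4:177442438-182143986), held 0.732 against 0.731, and CELF4-PIK3C3 held 0.854 against 1.30.

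In the alpha-satellite-like windows of the 11 deserts, 19.8 Mb in all, there were 5446 positions, 0.275 per kb. Only 13.9% of their bases started a 36-mer found once. The rest of the same 11 deserts held 0.498 per kb. Pairs of positions within these windows lay most often 172, 343 and 513 bp apart, and 13.9% of neighbours were under 60 bp apart. Windows of 100 kb without a position numbered 218 of 4794 (4.55%) over all deserts, 2 of 4436 in satellite-free deserts and 4 of 5585 in gene bodies. The 11 were not alike, and 3 of them, named after their values were seen, had dense clusters of positions. The desert between TRIML1 and FRG1 (chr4:188147744-189940869) was the densest of the 11, at 1.63 per kb, with 22.6% of neighbours under 60 bp apart and a median gap of 172 bp. The desert between ENSG00000283886 and FOXD4L6 (chr9:39874563-41126434) held 0.433 per kb, with 28.1% under 60 bp and a median gap of 132 bp, and the genes within 1 Mb held 0.128 per kb. That between TPTE and POTED (chr21:10606141-13609776) held 0.576 per kb, with 23.6% and 130 bp. How the authors' alignment placed reads that fit many repeat copies is not given in the sources used here, and the densities per determined base of these deserts read differently from those per unique base. Over bases that start a 36-mer found once, the 11 deserts held a median of 1.08 positions per kb and the satellite-free deserts 0.708. Over all bases their median log2 ratio to the genes within 1 Mb was -0.91 (n = 10), and over unique bases it was +0.81. With unique bases only, the GC-corrected log2 ratio of all 270 deserts to gene bodies was +0.25 ± 0.22 (SD, n = 22), below 0 on 0 of 22 chromosomes.

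Beside the genes within 1 Mb of its ends a desert was only slightly sparser. Over 267 deserts with at least 100 kb of gene bodies there, the median log2 ratio was -0.062, and 149 of 267 lay below 0. After the GC expectation on both sides the median was +0.12 and 74 lay below 0. Few deserts left that level by more than 1.5 times. Of the 267, 15 (5.62%) were lower by more than 1.5 times, and of all 2472 gene-free stretches of 100 kb or more, deserts included, 4.69% were. After the GC expectation 5 deserts (1.87%) were lower, against 3.68% of all stretches. Higher by more than 1.5 times were 10 deserts (3.75%), against 18.9% of all stretches, and after the GC expectation 11 (4.12%), against 7.69%. The share of deserts well above their genes was thus below the share of all gene-free stretches, and before the GC expectation the share well below was near it. Most of these stretches are shorter than a desert and hold fewer positions, and the shares were not matched for length.

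The deserts richest in GC were the ones most often above their genes. Of the 35 satellite-free deserts with 40 to 48% GC, 8 were below the genes nearby, with a median log2 ratio of 0.22. Of the 93 with 36 to 38% GC, 60 were below, with a median of -0.11, and of the 87 with 34 to 36% GC, 54 were below, with a median of -0.090. In length, 60 of the 118 deserts of 1 to 1.5 Mb and 19 of the 25 of 3 to 5 Mb lay below their genes. After the GC expectation 86 of the 118 and 17 of the 25 lay above them. Densities on either side of the length limit overlapped. The 7 stretches just under it (0.984 to 0.999 Mb) held 0.586 to 1.13 positions per kb, and the 10 deserts just over it (1.00 to 1.02 Mb) held 0.738 to 2.07. These few stretches were not matched for GC content or chromosome, and a step at the limit was not tested.

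Density was lower far from the nearer gene. In satellite-free deserts it was 0.851 per kb within 5 kb of the nearer gene, 0.922 from 5 to 20 kb, 0.924 from 50 to 100 kb, 0.802 from 200 to 500 kb, 0.662 from 500 to 1000 kb and 0.564 beyond 1000 kb. Over the same distances the GC content of the sequence went from 40.4% within 5 kb to 38.6% at 50 to 100 kb and 35.1% beyond 1000 kb. Against gene bodies of the same chromosome the log2 ratio was -0.056 ± 0.170 (SD, n = 21) at 50 to 100 kb, below 0 on 13, and -0.48 ± 0.18 at 500 to 1000 kb, below 0 on 21. After the GC expectation it was +0.22 ± 0.14 and +0.14 ± 0.080 at the same distances, and +0.085 ± 0.099 (n = 17) beyond 1000 kb. Only deserts of over 2 Mb reach beyond 1000 kb, and longer deserts were sparser as a whole. The median was 0.599 per kb in those of 3 to 5 Mb and 0.801 in those of 1 to 1.5 Mb. A gradient within deserts therefore cannot be told apart here from differences between deserts. The lower raw density far from genes went with a lower GC content. From 5 kb on, every GC-corrected mean of satellite-free deserts lay above the gene level. With the satellite kept this did not hold in the middle: beyond 1000 kb all deserts gave -1.24 ± 1.02 (SD, n = 19) before and -0.53 ± 1.14 after the GC expectation, the latter below 0 on 11 of 19.

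**Figure D4:**
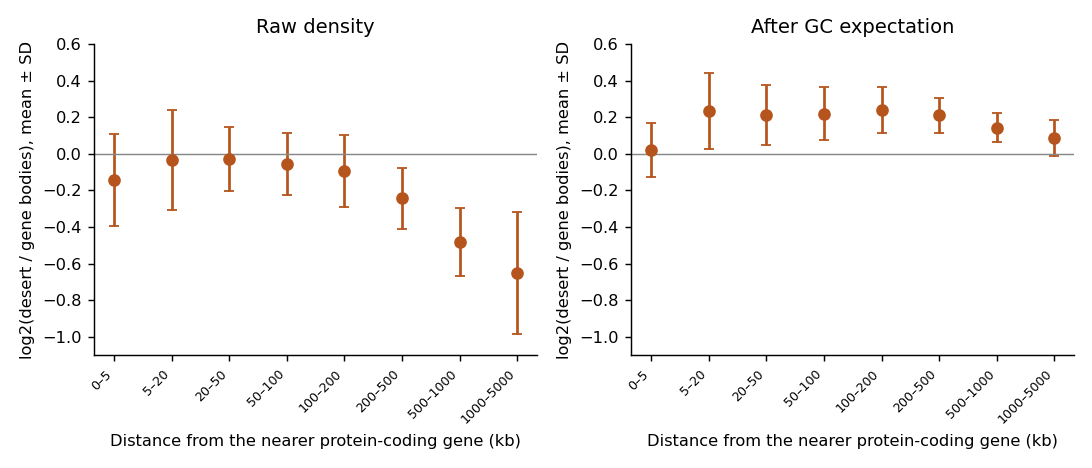
Log2 ratio of the density of satellite-free deserts to that of gene bodies on the same chromosome, by distance from the nearer protein-coding gene, before (left) and after (right) the GC expectation. Points are means and bars SDs over 16 to 21 chromosomes. The raw ratio goes down beyond 200 kb, and the GC-corrected one stays between 0.019 and 0.24.

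The edges differed by the end of the gene that faced the desert. At the 276 edges where a gene's 5' end faced a satellite-free desert, the first 200 bp held 35 positions, 0.634 per kb, 0.569 times the GC expectation (95% exact Poisson interval 0.396 to 0.791, counting error only) in sequence of 58.7% GC. The stretch from 500 to 1000 bp held 0.611 times the expectation, that from 1000 to 2000 bp 0.871 times, and that from 2000 to 5000 bp 1.12 times. At the 242 edges where a 3' end faced the desert, the first 200 bp held 31 positions, 1.25 times the expectation (0.85 to 1.78) in sequence of 35.1% GC. Promoters, which lie at 5' ends, are known for a region free of nucleosomes. Short stretches of 100 kb or more gave 0.637 and 1.09 times the expectation in the first 200 bp at 5' and 3' ends, so the low value at 5' ends was shared with other genes.

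Deserts held few of the features that mark genes. CpG islands, GC-rich segments typical of promoters, numbered 256 in satellite-free deserts, 0.542 per Mb, against 9.75 per Mb in gene bodies and 4.19 in short stretches. CpG dinucleotides numbered 6.40, 11.3 and 10.1 per kb. Genes of long noncoding RNAs covered 149 Mb of satellite-free deserts and held 0.785 positions per kb, while desert sequence outside any annotated gene held 0.732. The log2 ratio of the 2 was 0.042 ± 0.114 (SD, n = 21), higher in the noncoding genes on 14 chromosomes, and 0.011 ± 0.066 after the GC expectation, both smaller than their spread.

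CTCF, the zinc finger protein that anchors chromatin loops, is known for phased nucleosomes at both sides of its sites. Matches to its consensus motif, of 12 bases and searched on both strands, numbered 892 in satellite-free deserts, 1.89 per Mb, against 4.05 in gene bodies and 4.72 in short stretches. A match was found in 1.84% of the 10-kb windows of deserts, 3.65% of those of gene bodies and 4.01% of those of short stretches. Binding was not measured, and a match is not a site. Within 50 bp of the matches deserts held 1.41 positions per kb, and 100 to 200 bp away they held 2.04. The log2 ratio was -0.65 ± 0.55 (SD, n = 16 chromosomes), below 0 on 14. Gene bodies gave 0.949 and 2.70 per kb, a log2 ratio of -1.60 ± 0.42 (n = 22), below 0 on 22. With matches read along the motif strand, the highest 10-bp bins in deserts began at -160 bp (4.37 per kb) and at 150 bp (3.03 per kb). In genes they began at -150 bp (6.37 per kb) and at 130 bp (3.97 per kb).

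Of 831 matches searched for a printed example, 6 had a position 100 to 210 bp away on each side, none closer and at least 4 within 400 bp. They are shown because they carry the flanked pattern in full, along the motif strand with the match in capitals. After each name stand the distances in bp, on the motif strand, from the match to the nearest position before and after it.
TSN-CNTNAP5 (chr2:121975197-121975228, -158 and 167): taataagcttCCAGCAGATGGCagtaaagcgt
CNTNAP5-GYPC (chr2:126399175-126399206, -124 and 152): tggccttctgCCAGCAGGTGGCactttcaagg
DPPA4-NECTIN3 (chr3:109444763-109444794, minus strand, -145 and 186): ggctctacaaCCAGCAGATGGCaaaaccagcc
SLC8A1-PKDCC (chr2:41853842-41853873, -163 and 123): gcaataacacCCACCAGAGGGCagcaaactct
SH2D4B-NRG3 (chr10:80699679-80699710, -137 and 151): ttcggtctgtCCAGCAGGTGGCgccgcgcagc
GCFC2-LRRTM4 (chr2:76281648-76281679, -170 and 181): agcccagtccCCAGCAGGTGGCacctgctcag

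The deserts that hold them were 1.04 to 2.26 Mb long. The CTCF consensus allows more than one letter at some places, so the capitals differ between them. The matches were picked for this pattern, so the distances are a description.

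The spacing of nucleosomes in deserts was close to that in genes. All pairs of positions within a desert were counted by distance, divided by the pairs that the length of the desert allows, and smoothed. In satellite-free deserts pair counts had maxima at 184, 371, 557, 740, 927, 1111 and 1295 bp, and in gene bodies at 185, 375, 561, 749, 934, 1131 and 1315 bp. The line through the 7 maxima gave a repeat length, the average distance from one nucleosome to the next, of 185.1 bp in satellite-free deserts, 186.1 bp in all deserts, 188.4 bp in gene bodies and 187.3 bp in short stretches. Over the 16 chromosomes with at least 10 Mb of satellite-free desert, the repeat length was shorter than in gene bodies by 1.38 bp ± 2.34 (SD), which is within the spread, on 13 of 16. The first maximum was at 183.6 bp in deserts and 185.2 in genes, a difference of -1.63 bp ± 0.957, lower on 14 chromosomes and equal on the other two. With the satellite kept, 2 chromosomes gave a repeat length near the monomer of the satellite, 170.1 bp on chromosome 7 and 170.4 bp on chromosome 21, whose satellite-free deserts gave 185.1 and 189.8 bp.

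The rhythm stood out somewhat more in deserts than in gene bodies. The first maximum over the next minimum was higher in satellite-free deserts than in gene bodies by 0.20 ± 0.13 on the log2 scale, on 15 of 16 chromosomes. In all deserts the difference was 0.17 ± 0.31, smaller than its spread. Short stretches lay near deserts: pooled over chromosomes the log2 value was 2.05 in satellite-free deserts, 2.02 in short stretches and 1.92 in gene bodies. Regular runs, at least 4 neighbours in a row with gaps within about 30 bp of the repeat length, were nonetheless rarer in deserts, where the density was lower: they held 0.904% of the positions of satellite-free deserts (748 runs) and 1.76% of those of gene bodies (4633 runs). The longest in a desert had 8 positions, on chromosome 2 (chr2:128498909-128500249), and the longest in a gene had 12.

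The order of close pairs in deserts and genes depended on how they were counted. Positions 10 to 60 bp apart are too close for separate whole nucleosomes on 1 DNA molecule, and can mark alternative placements in different cells or more than one call at a nucleosome. Per bp of distance they were 1.71 times as frequent as pairs 2 to 3 kb apart in satellite-free deserts, 1.59 times in all deserts and 1.42 times in gene bodies. On the log2 scale satellite-free deserts were higher by 0.27 ± 0.12 (SD, n = 16), on 16 of 16 chromosomes. With lighter smoothing than for the repeat length, the peak was at 31 bp in both, 3.67 times the far rate in satellite-free deserts and 2.92 times in genes. The share of neighbours under 60 bp apart gave the opposite order: 7.98% in satellite-free deserts (95% Wilson interval 7.89 to 8.07%) and 8.998% in gene bodies (8.95 to 9.05%), a difference of -1.09 points ± 0.60 over 16 chromosomes, lower on 15. The interval covers counting error only. The share moves with density, and the median distance between neighbours was 722 bp in satellite-free deserts and 549 bp in genes. The ratio to far pairs may move with density too, which was not tested.

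In 10-kb windows of equal GC content the close pairs of deserts and genes lay near each other. At 36 to 40% GC they were 1.84 times the far rate in satellite-free deserts and 1.81 times in gene bodies, with deserts higher on 12 of 20 chromosomes. At 40 to 44% GC the values were 1.36 and 1.48, with deserts higher on 4 of 19. Relative to the far rate, close pairs were more frequent in both classes the lower the GC content. In desert windows they went from 1.17 times that rate at 44 to 52% GC to 2.52 times at 32 to 36%. The share of neighbours under 60 bp apart went the other way. Between the same GC classes it fell from 10.9 to 8.55% in satellite-free desert windows and from 10.5 to 8.63% in gene windows. The repeat length in desert windows of these 4 GC classes was 183.7 to 186.8 bp, below that of gene windows of the same class in each.

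**Figure D5:**
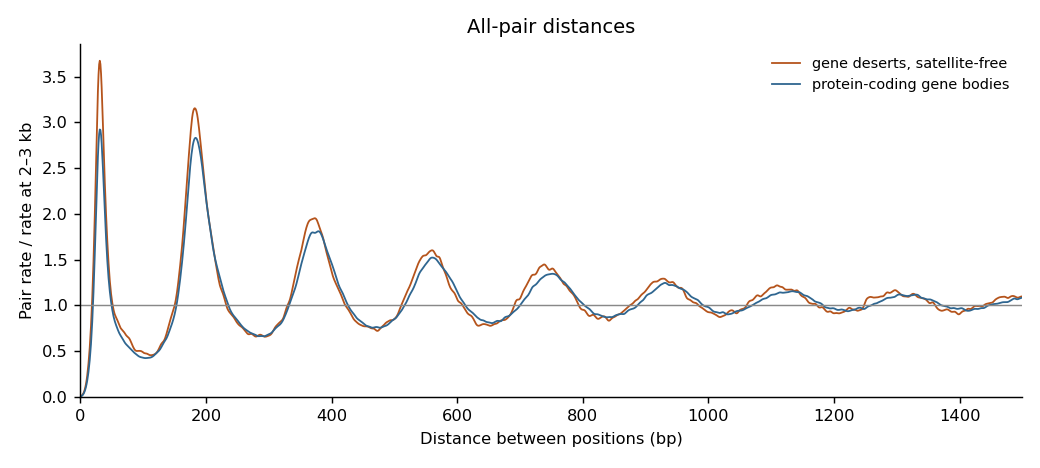
Rate of pairs of positions by distance, divided by the rate at 2 to 3 kb, in satellite-free deserts and protein-coding gene bodies. The curves are smoothed less than for the repeat length. Both have a narrow peak at 31 bp and repeating maxima, the first at 182 bp in deserts and 184 bp in genes. The desert curve runs slightly ahead of the gene curve from the second maximum on.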

How the data were processed

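The authors deposited 1 list of single-base positions on hg38, with no score, height or p-value, so a position counts as 1 call of no weight (unit: other, a coordinate). Bowtie2 and hg38 (GRCh38) stand in the submitters' processing notes. The caller, filters, read depth and whether the 2 batches were pooled are not given in the sources used here, so neither a value per batch nor a test over samples was made, and the batches could not be compared.

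Repeated rows (4) were dropped. Densities were divided by determined bases. The GC expectation gave each base the density of its 2% GC bin (200 bp) over deserts, gene bodies and short stretches together. Pair rates were smoothed with a Gaussian of SD 10 bp. Spacing by chromosome used the 16 autosomes with 10 Mb or more of satellite-free desert, a limit set after the data were seen. Code was tested on simulated positions. Deserts named singly are the 10 longest and, among satellite-free ones, the 3 densest and 3 least dense. Of the 10 longest, 2 are not reported singly here, nor is 1 of the 6 sequence pairs. Sequence pairs came from the longest satellite-free deserts, CTCF matches from any satellite-free desert by their flanking positions, both off chromosome 8. The deserts and all lists were chosen with earlier results of these data known. Alternatives changed the desert length, GC window, denominator, merging of positions, flank, smoothing and chromosomes used. Python 3.11.15, numpy 2.4.6, scipy 1.17.1, pandas 2.3.3, numba 0.67.0 and matplotlib 3.10.9 were used.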

Additional observations from a re-analysis of the deposited data

How the results depend on the processing

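Of 84 alternative values for the 8 comparisons, 74 kept their direction and moved by less than 1 SD over chromosomes (for the genes nearby, over deserts), 3 moved further and 7 turned in sign. Deserts of 2 Mb or more gave a mean log2 density ratio of -0.70 to gene bodies and -0.93 to short stretches, -0.092 after the GC expectation, and a pooled repeat length 5.5 bp above that of gene bodies instead of 2.32 bp below. With satellite-free deserts of that length the values were -0.47, -0.70, 0.14 and -4.04 bp, and the log2 ratio of close pairs was 0.44. That ratio was 0.16 in all deserts, 0.27 in satellite-free deserts of any length and 0.21 in all deserts of 2 Mb or more. Counting unique 36-mers only, the difference in GC dependence was -0.052. With the GC expectation the median against the genes nearby was 0.12 in all deserts and 0.13 in satellite-free ones. In all deserts the log2 ratio of close pairs was -0.11 in 10-kb windows of 36 to 40% GC and -0.14 as the share of neighbours under 60 bp. In satellite-free deserts it was 0.019 in these windows. The cause was not tested. A GC window of 1000 bp gave a GC-corrected ratio of 0.0093 in all deserts and 0.11 in satellite-free ones. The combinations with satellite-free deserts were chosen after seeing the data. No paired analysis was possible because the list names no batch, and leaving out a batch could not be run for the same reason. Unknown read depth and 36-mers found more than once limit what a region without positions means.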
